A study of Mus musculus with 22 samples.

Results

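The comparison described here is that of primary mouse hepatocytes kept for 48 h with cells kept for 24 h under 10 µM cyclosporin A. Its members are the 6 arrays, of 22 in all, whose value-table columns are titled as 10 µM at those times, 3 per time, paired by the experiment number (1 to 3) in the labels. The hepatocytes came from C57Bl6 mice, a common inbred strain, and every array held total RNA of such cells hybridised in a single colour to an Agilent mouse microRNA array. The groups used were 10 µM cyclosporin A for 48 h (3 arrays) and 24 h (3), 50 µM cyclosporin A for 48 h (3) and 24 h (2), and the solvent, 0.5% DMSO, for 48 h (6) and 24 h (5). The labels put the 10 µM and the 50 µM arrays in different dose series, and the DMSO arrays come from both. The cyclosporin A cells also received the solvent, and the medium of all cells held fetal bovine serum. The labels call the arrays biological replicates but do not say which animals or cultures an experiment number stands for, so p-values measure the spread between these samples. The treatment field of the labels names HepG2, a human liver tumour line, while every other field names primary mouse hepatocytes.

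MicroRNAs (miRNAs) are short RNAs that guide repressor complexes to messenger RNAs through their seed, the bases near their 5′ end, and miRNAs with the same seed can bind the same sites. Cyclosporin A is an immunosuppressant that inhibits calcineurin and can harm the liver. Hepatocytes put into culture gradually lose liver-specific expression and can take up features of growing cells, so time in culture is itself a variable in such a study. The comparison addresses which miRNAs differed between the later and the earlier time at the lower dose, and whether they did so in solvent and at the higher dose.

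The names of the arrays have to be stated before any result. The spot files and the value-table columns of the series give different doses to the same arrays in experiments 2 and 3. Of the 6 columns of 10 µM, 2 matched the spot file filed under their own name, and the other 4 matched a file that names 50 µM at the same time and experiment. Each column had a rank correlation of 1 with its matched array, while the highest with any other array was 0.97. The arrays are named by column below, and the labels do not say which naming is right. The arrays of experiment 1 keep their names either way. There the bright entry miR-6243 had 4.57 at 10 µM and 6.69 at 50 µM after 48 h (log2 scaled intensity). By column, experiments 2 and 3 had 4.22 and 4.28 at 10 µM and 6.48 and 6.60 at 50 µM. At 24 h experiment 1 held only a 10 µM array, with 4.27. By column the others had 5.18 and 3.86 at 10 µM and 5.47 and 5.74 at 50 µM. Which naming is right was not tested. Values under the files' names are given for the called miRNAs, for the growth-cluster and hepatocyte-enriched lists and for some other miRNAs. A miRNA without such a value can depend on the naming too. The log2 difference of 48 h minus 24 h at 10 µM was 0 by column and 1.07 by file for miR-6351. It went from 0.00103 to 0.85 for miR-370-3p, from -0.08 to 0.72 for miR-6243 and from -0.05 to 0.68 for miR-1931. It went from -0.10 to 0.57 for miR-450a-2-3p, from 0.26 to 0.77 for miR-770-3p and from -0.02 to 0.44 for miR-494-3p. Of 48 named miRNAs, 12 had the opposite sign by the files' names.

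The sequences of the miRNAs on which the results turn are shown first, grouped by seed and by genomic cluster. They are RefSeq mature sequences on build GRCm38.p6, written 5′ to 3′ with the seed (bases 2 to 8) in capitals. Of 46 tested miRNAs looked up, 41 had an entry.
The first group shares the seed AAAGUGC and includes miR-106b-5p:
miR-106b-5p: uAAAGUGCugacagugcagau
miR-17-5p: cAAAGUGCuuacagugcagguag
miR-20a-5p: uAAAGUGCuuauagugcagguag
miR-20b-5p: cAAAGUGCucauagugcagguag
miR-93-5p: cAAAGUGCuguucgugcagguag
Their cluster mates carry other seeds:
miR-18a-5p: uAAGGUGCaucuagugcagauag
miR-19a-3p: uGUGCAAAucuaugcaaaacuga
miR-19b-3p: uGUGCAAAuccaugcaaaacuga
miR-92a-3p: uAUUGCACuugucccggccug
miR-25-3p: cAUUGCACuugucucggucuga
miR-17-3p: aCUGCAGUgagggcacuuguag
The remaining sequences belong to the other miRNAs with large differences and to the near-copy miR-27b-3p:
miR-23a-3p: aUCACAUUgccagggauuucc
miR-27a-3p: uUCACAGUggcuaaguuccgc
miR-27b-3p: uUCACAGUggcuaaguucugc
miR-193a-3p: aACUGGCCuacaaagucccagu
miR-210-3p: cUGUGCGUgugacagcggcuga

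Several of these differ at few positions, so cross-hybridisation between them was not tested. miR-27a-3p and miR-27b-3p differ at 1 of 21 positions, miR-19a-3p and miR-19b-3p at 1 of 23, and miR-17-5p and miR-20a-5p at 2 of 23. The members of the miR-17 cluster lie side by side on the plus strand of chromosome 14, where miR-17-5p is at chr14:115043684-115043706 and miR-18a-5p at chr14:115043867-115043889. The cluster of miR-106b-5p (chr5:138165787-138165807, minus strand), miR-93-5p and miR-25-3p lies within Mcm7, which encodes a subunit of the replicative helicase. miR-23a-3p (chr8:84208563-84208583) and miR-27a-3p (chr8:84208727-84208747) are neighbours on the plus strand of chromosome 8. miR-193a-3p lies at chr11:79712009-79712030 on the plus strand, and miR-210-3p at chr7:141221407-141221428 on the minus strand.

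Levels below are log2 values of the scaled intensity, in which 0 is the 75th percentile of an array over the 284 probes that stood well above background on all 22 arrays, and the floor for dim probes is -4.44. A change is the fitted log2 difference, 48 h minus 24 h, with the experiment number as a block. A miRNA was called where its adjusted p in limma, over the 292 miRNAs tested, was under 0.05. In bulk RNA, fewer cells of a type and less of an RNA per cell cannot be told apart.

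After 48 h under 10 µM cyclosporin A, 3 miRNAs rose and 1 fell relative to 24 h. The risers were miR-23a-3p, the first member of the miR-23a/27a/24-2 cluster, and miR-106b-5p and miR-18a-5p of the growth-linked miR-17/92a and paralogous clusters. The miRNA that fell was miR-193a-3p, which is known to repress growth-promoting genes. These 4 were 1.37% of the 292 tested (1.03% higher, 0.342% lower). At an unadjusted p under 0.05 there were 36 (12.3%), 28 higher (9.59%) and 8 lower (2.74%). The fitted changes ran from -1.21 to 1.05 with a median of 0.09, 172 of them positive and 105 negative.

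miR-23a-3p had levels of -0.66, -1.14 and -1.39 at 48 h in experiments 1 to 3, against -1.62, -2.02 and -2.71 at 24 h. All 48 h arrays lay above all 24 h arrays, and experiment 3 was the lowest at both times. The change was 1.05 ± 0.22 (SE, n = 3 pairs), which is 2.07-fold, with an adjusted p of 0.0391.

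miR-106b-5p stood at -1.75, -2.03 and -2.20 at 48 h and at -2.13, -2.85 and -2.87 at 24 h. The groups overlapped, since the lowest 48 h array lay below the highest 24 h array, but within each experiment the 48 h array was the higher. Its change was 0.62 ± 0.14 (1.54-fold, adjusted p = 0.0391), with differences of 0.38, 0.82 and 0.68 in the 3 pairs.

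miR-18a-5p reached -2.55, -2.75 and -3.09 at 48 h, compared with -3.16, -3.56 and -4.24 at 24 h. The groups did not overlap, and the 24 h array of experiment 3 was close to the floor. The change was 0.85 ± 0.20 (1.81-fold, adjusted p = 0.0391).

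miR-193a-3p had levels of -1.42, -1.64 and -2.07 at 48 h, while the 24 h arrays had -0.65, -0.89 and -0.50. Every 48 h array lay below every 24 h array, and the gap was widest in experiment 3. The change was -1.03 ± 0.23 (adjusted p = 0.0391), so the level was 2.05-fold lower at 48 h.

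**Figure D1:**
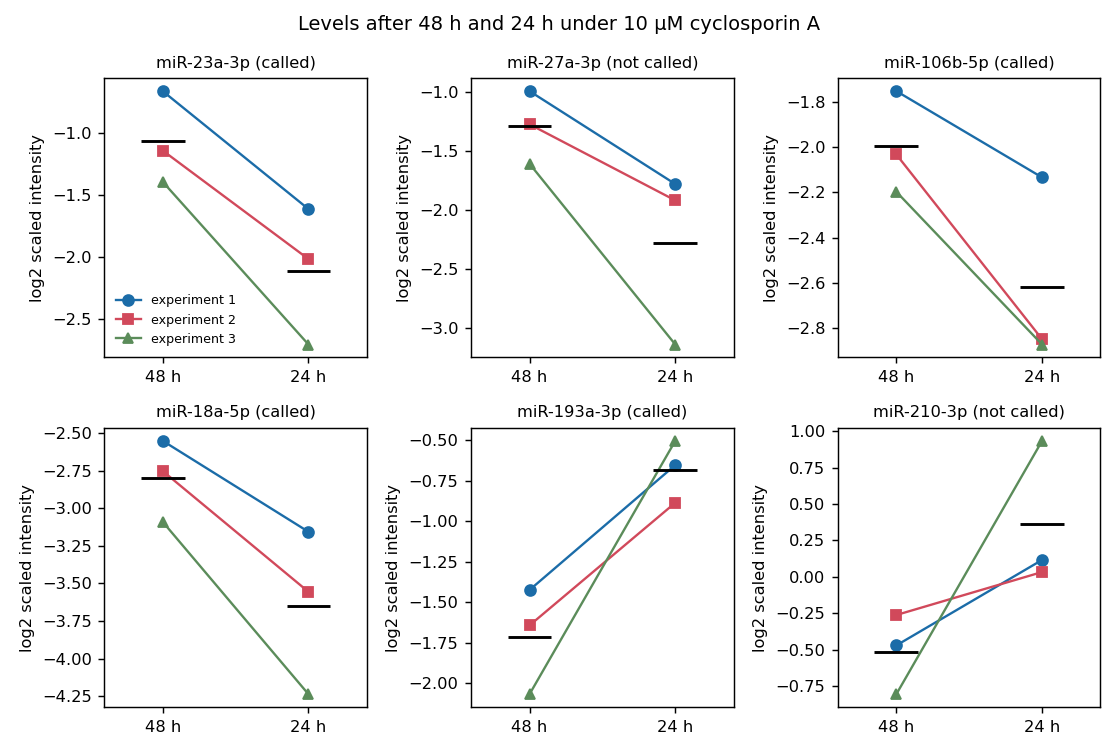
Levels (log2 scaled intensity) of 6 miRNAs on the 48 h arrays (left) and the 24 h arrays (right) of 10 µM cyclosporin A; symbols and lines mark the experiments and black bars the group means (n = 3 each). miR-23a-3p, miR-27a-3p, miR-106b-5p and miR-18a-5p were higher at 48 h in each experiment, miR-193a-3p and miR-210-3p lower, and of these miR-27a-3p and miR-210-3p were not called.

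These calls depended on the setting. Without the block by experiment no miRNA passed in limma (0 called, 17 at an unadjusted p under 0.05), and with the arrays named by their files there were 0 calls and 42 at an unadjusted p under 0.05. Pooling the 2 doses removes the dependence on the names, and 1 miRNA was then called, miR-193a-3p at -1.01 (adjusted p = 0.00868). By the files' names its change was -0.96 and that of miR-23a-3p was 0.40. miR-106b-5p then had 0.10 and miR-18a-5p -0.05, and all of these had an adjusted p above 0.05. Leaving out any single 10 µM array gave 0 calls, except that without CsA10uM_24h replicate 2 there were 2, both lower.

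The arrays of the 2 times also differed in technical measures. The 48 h arrays detected 201 to 290 miRNAs and the 24 h arrays 252 to 305. Outlier spots made up 3.94% to 10.3% of the spots at 48 h and 2.19% to 6.42% at 24 h, and the mean of the negative controls was 3.46 to 6.17 at 48 h and 1.98 to 3.18 at 24 h. The array CsA10uM_48h replicate 2 had the fewest detected miRNAs and the most outlier spots. Only slide 1 held both times, as the pair of experiment 2. In that pair miR-23a-3p differed by 0.88, miR-106b-5p by 0.82, miR-18a-5p by 0.80 and miR-193a-3p by -0.76, so the direction was the same within the slide. With slide as a further block 1 miRNA was called, and miR-106b-5p, miR-18a-5p and miR-193a-3p were no longer called. In the other pairs slide and time cannot be told apart, and the part of these measures in the results was not tested.

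Of the 292 miRNAs, 34 (11.6%) had groups that did not overlap, 29 with all 48 h arrays higher (9.93%) and 5 with all lower (1.71%). A value that was higher at 48 h in every pair was found for 73 (25%), and lower in every pair for 27 (9.25%). The 8 miRNAs that followed the called ones by p were not called. miR-27a-3p, known as a regulator of lipid metabolism, had -0.99, -1.27 and -1.61 at 48 h against -1.78, -1.92 and -3.14 at 24 h. Its change of 0.99 ± 0.26 had an adjusted p of 0.0843, and the 48 h arrays all lay above the 24 h arrays. By the files' names its change was 0.08 (adjusted p = 0.934), and with both doses pooled 0.33.

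miR-210-3p, the miRNA best known for induction by low oxygen, had levels of -0.47, -0.26 and -0.81 at 48 h and of 0.12, 0.03 and 0.93 at 24 h. The groups did not overlap, but experiment 3 differed by -1.74 while experiment 2 differed by -0.30. The change was -0.87 ± 0.25 (adjusted p = 0.103), and by the files' names -0.50.

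miR-99b-5p, which lies with let-7e-5p within Spaca6, was above background on 2 of 3 arrays at each time, and its change of 0.67 ± 0.18 (adjusted p = 0.0983) leans on the floor at 24 h. Its cluster mates had changes of 0.56 ± 0.20 (let-7e-5p, adjusted p = 0.188) and 0.40 ± 0.21 (miR-125a-5p, adjusted p = 0.434). All 3 were positive with groups that did not overlap, and miR-125a-5p was named as a cluster mate after its values were seen. Named by file, miR-99b-5p had 0.29 and let-7e-5p 0.13.

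The dim miR-702-3p, which lies within Plod3, was also above background on 2 of 3 arrays at each time, with a change of 0.41 ± 0.11 (adjusted p = 0.0983). miR-877-5p, which lies within Abcf1, had -2.69, -2.85 and -2.74 at 48 h against -3.21, -3.21 and -3.31 at 24 h, and its change was 0.48 ± 0.15 (adjusted p = 0.112). Its arrays were tight within each time, and the groups did not overlap. miR-290-5p, of a cluster known from embryonic stem cells, had 0.56 ± 0.16 (adjusted p = 0.103) and miR-3096b-3p 0.69 ± 0.21 (adjusted p = 0.112). With file names, miR-702-3p had 0.19 and miR-3096b-3p 0.33. The eighth, miR-17-3p, is described with its cluster.

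The 11 tested members of the miR-17/92a cluster and its paralogues all had positive changes, and each was higher at 48 h in all 3 pairs. These clusters are induced by the transcription factors Myc and E2F and are known for promoting cell division. The median of the 11 was 0.62 and their range 0.43 to 0.85, beside a median of 0.09 over all 292. Of the 11, 2 were called, 10 had an unadjusted p under 0.05, and 2 had groups that did not overlap, miR-18a-5p and miR-17-5p. Over all 292, 1.03% were called higher and 9.59% were higher at an unadjusted p under 0.05. Groups lay fully higher at 48 h for 9.93%, and 25% were higher in all 3 pairs. The list holds 18 members on the array. The 7 others did not pass the filter on dim probes and were above background on none of the 6 arrays, so the 11 are those that could be measured.

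Within the AAAGUGC seed family shown above, miR-20a-5p had 0.48, 0.30 and 0.01 at 48 h against 0.11, -0.24 and -1.06 at 24 h, a change of 0.66 ± 0.21 (adjusted p = 0.145). The groups overlapped between the 48 h array of experiment 3 and the 24 h array of experiment 1. miR-17-5p, which leads the chromosome 14 cluster, was well above background on 3 of 3 arrays at 48 h and 2 of 3 at 24 h, with levels of -3.30, -3.34 and -3.09 against -3.56, -3.64 and -4.42. Its change of 0.63 ± 0.26 (adjusted p = 0.306) includes a 24 h array near the floor.

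miR-20b-5p, from the paralogous cluster on chromosome X, had a change of 0.64 ± 0.23 (adjusted p = 0.188), and miR-93-5p, of the Mcm7 cluster, had 0.54 ± 0.17 (adjusted p = 0.145). With miR-106b-5p the 5 members of this seed thus ranged from 0.54 to 0.66. They share most of their bases, and how far their probes measure each other was not tested.

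The cluster mates with other seeds had values in the same range. miR-92a-3p, whose sequence is encoded on both chromosome 14 and chromosome X, had 1.77, 1.24 and 1.18 at 48 h compared with 1.20, 0.86 and 0.27 at 24 h. The lowest 48 h array lay just below the highest 24 h array, and the change was 0.62 ± 0.22 (adjusted p = 0.188). miR-25-3p, with the same seed but from the Mcm7 cluster, had 0.47 ± 0.17 (adjusted p = 0.192).

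miR-19b-3p, of the same clusters, had 0.53, 0.36 and -0.12 at 48 h and 0.24, -0.46 and -0.79 at 24 h. Its groups overlapped, and its change was 0.59 ± 0.20 (adjusted p = 0.174). The dim miR-19a-3p had 0.43 ± 0.26 (adjusted p = 0.507). miR-17-3p, the other arm of the miR-17 hairpin, had 0.55 ± 0.17 (adjusted p = 0.120).

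Under the other naming the list lost this pattern. By the files' names 6 of the 11 were positive and 5 negative, with a median of 0.02 at 10 µM, and all 11 were positive at 50 µM with a median of 0.40. With both doses pooled all 11 were positive, with a median of 0.18 and 0 called. In the other alternatives run, including those without each array and each experiment, all 11 were positive, with medians from 0.25 to 0.75. The number with an unadjusted p under 0.05 in limma varied more. It was 10 in the main fit and with slide as a further block. It was 0 with scaling over all probes, 3 without the block by experiment and 4 with the value table.

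**Figure D2:**
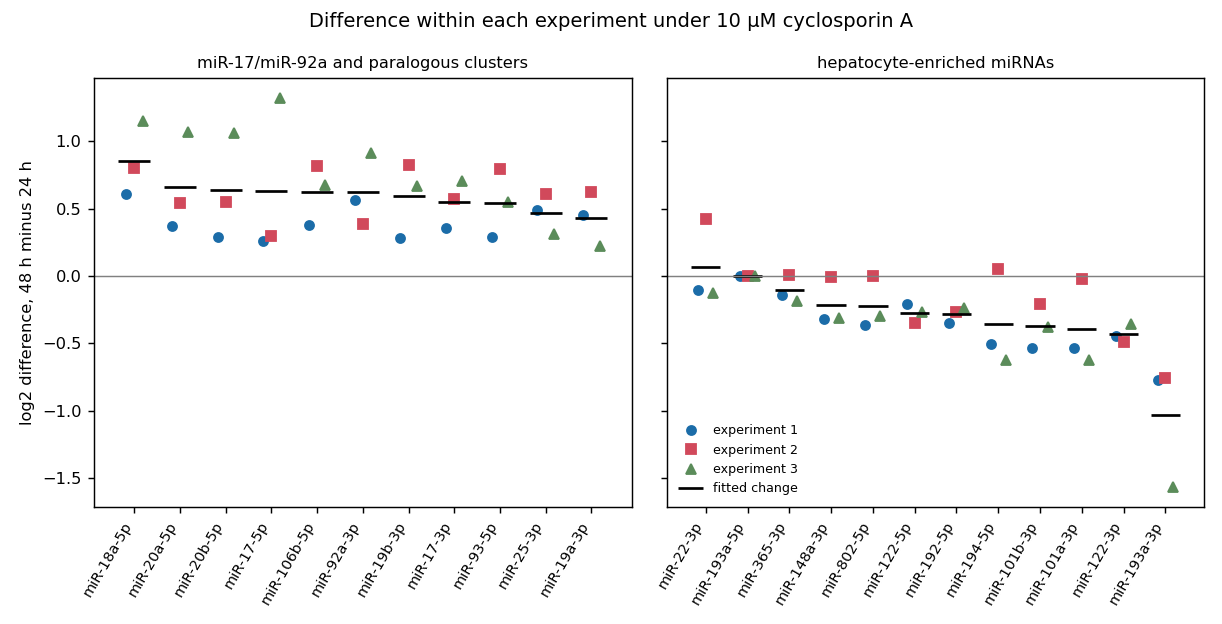
Difference (log2, 48 h minus 24 h) in each of the 3 experiments under 10 µM cyclosporin A for the 11 tested members of the miR-17/92a and paralogous clusters (left) and the 12 tested hepatocyte-enriched miRNAs (right); symbols mark the experiments and black bars the fitted change. All points on the left lie above 0, while on the right the fitted changes run from 0.07 for miR-22-3p to -1.03 for miR-193a-3p.

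Hepatocyte-enriched miRNAs mostly had small negative values. Of 15 on the array 12 were tested, 10 had a negative change, 1 a positive one (miR-22-3p, which had -0.29 by the files' names), and miR-193a-5p was at the floor on all 6 arrays. miR-193a-3p was the 1 member called, 4 had an unadjusted p under 0.05, and 7 were lower at 48 h in all 3 pairs. Over all 292, 0.342% were called lower, 2.74% were lower at an unadjusted p under 0.05 and 9.25% were lower in all 3 pairs. The median was -0.28, beside 0.09 over all 292. Of the 15, 4 were above background on none of the 6 arrays.

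The liver miRNA miR-122-5p, which acts on lipid and cholesterol metabolism, had 5.72, 5.36 and 5.46 at 48 h against 5.93, 5.71 and 5.73 at 24 h. The 48 h arrays were lower in each pair, and the groups overlapped narrowly, between experiment 1 at 48 h and experiment 2 at 24 h. The change of -0.28 ± 0.12 (adjusted p = 0.330) turned to 0.06 after quantile normalisation. It took 9.86% of the summed signal at 48 h and 11.1% at 24 h. The other arm, miR-122-3p, had -0.43 ± 0.17 (adjusted p = 0.230).

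miR-192-5p and miR-194-5p, liver miRNAs that p53 can induce, had changes of -0.28 ± 0.14 (adjusted p = 0.434) and -0.36 ± 0.18 (adjusted p = 0.413). For miR-101b-3p, known for repressing the chromatin gene Ezh2, the groups did not overlap, at -2.02, -2.21 and -2.22 at 48 h against -1.49, -2.0 and -1.84 at 24 h. Its change was -0.37 ± 0.21 (adjusted p = 0.495). miR-101a-3p had -0.39 ± 0.26, miR-148a-3p -0.21 ± 0.16 and miR-365-3p, a neighbour of miR-193a on chromosome 11, -0.11 ± 0.17, with adjusted p-values of 0.553, 0.580 and 0.832. The dim miR-802-5p was above background on 0 of 3 arrays at 48 h and 2 of 3 at 24 h. By the files' names the list had a median of -0.36 with 0 positive, and with both doses pooled -0.39 with 1 positive, so its side of 0 did not depend on the naming.

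The miR-23/24/27 family lies in 2 clusters, and 1 of its 5 tested members was called, beside 1.37% of all 292. The chromosome 8 members were miR-23a-3p, called at 1.05, and miR-27a-3p at 0.99. From the cluster with miR-27b-3p (chr13:63300760-63300780, within Aopep), miR-23b-3p had 0.12 ± 0.18 (adjusted p = 0.824) and miR-27b-3p -0.14 ± 0.17 (adjusted p = 0.759). miR-24-3p, encoded in both clusters, had 0.24 ± 0.17 (adjusted p = 0.569). The differences between members were not tested. Under the other naming miR-27a-3p had 0.08, miR-27b-3p -0.45, miR-24-3p -0.14 and miR-23b-3p -0.15.

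In the let-7 family, whose 9 tested members share the seed GAGGUAG and repress growth genes, 6 were positive and 3 negative, with a median of 0.07 and 0 called. The values ran from -0.16 ± 0.17 for let-7g-5p to 0.56 ± 0.20 for let-7e-5p, and miR-98-5p had 0.41 ± 0.21. Named by file, miR-98-5p had 0.06. Other lists had 0 calls too. The 7 tested miR-30 family members had a median of -0.15, the 3 of the miR-29 family -0.18, the 3 of the miR-15/16 family -0.05 and the 3 of the cluster of miR-182, miR-183 and miR-96 0.23. Of the last, miR-182-5p had 0.10 ± 0.17, and -0.40 by the files' names. The 12 lipid and cholesterol miRNAs, which include miR-122-5p and miR-27a-3p, had a median of -0.12. The 5 tested p53-responsive miRNAs had a median of -0.06, the 4 linked to inflammation -0.17, and the 5 tested of 38 from the imprinted Dlk1-Dio3 cluster 0.00103.

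miR-34a-5p, which p53 induces, had 1.10, 0.75 and 0.54 at 48 h against 0.66, 0.14 and 0.24 at 24 h. It was higher in each pair, with groups that overlapped, and its change was 0.45 ± 0.20 (adjusted p = 0.330), or 0.16 by the files' names. The stress-linked miR-21a-5p had -0.08 ± 0.15 (adjusted p = 0.868), or -0.35 by the files' names. miR-221-3p and miR-222-3p, which repress the cell-cycle inhibitor p27, had -0.37 ± 0.21 (adjusted p = 0.500) and -0.03 ± 0.07 (adjusted p = 0.926), and miR-155-5p, of activated immune cells, had 0.32 ± 0.21 (adjusted p = 0.553).

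The 10 entries with the highest mean signal on the 6 arrays, among them miR-6366, miR-5109 and miR-22-3p, had changes between -0.57 and 0.25, and 0 were called. miR-466f-3p was well above background on 0 of 3 arrays at 48 h and 3 of 3 at 24 h. Its measured means were -4.44 at 48 h and -4.02 at 24 h. The change was -0.42 ± 0.53 (adjusted p = 0.767), so a lower level at 48 h was not established. By the files' names this direction turned, with levels of -4.44, -3.17 and -3.25 at 48 h against -4.11, -4.32 and -3.58 at 24 h and a change of 0.38.

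The labelled cell type was checked against marker miRNAs. The summed scaled signal of the 15 hepatocyte miRNAs was 56.1 to 71.2 at 48 h and 66.1 to 82.7 at 24 h. Markers of other cells were low. The 5 stellate markers summed to 0.0648 to 0.125 at 48 h and 0.0476 to 0.0684 at 24 h, and the 2 endothelial ones to 0.0845 to 0.165 at 48 h and 0.106 to 0.258 at 24 h. The 5 leukocyte markers summed to 0.0619 to 0.104 at 48 h and 0.0608 to 0.0742 at 24 h, and the 7 of other epithelia to 0.0490 to 0.0757 at 48 h and 0.0554 to 0.0980 at 24 h. The 2 erythroid markers reached at most 0.00577 at 48 h and 0.0103 at 24 h. Within these lists, miR-145a-5p, miR-126-3p, miR-155-5p and miR-203-3p were above background on any of the 6 arrays. Defining markers such as miR-143-3p, miR-142-3p, miR-223-3p, miR-451a and miR-200b-3p were at the floor on all 6. miR-126-3p, the endothelial miRNA, had -0.45 ± 0.21 (adjusted p = 0.398).

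Time in solvent gave the background for these values. In DMSO alone 24 miRNAs were called between 48 h and 24 h (8.22%), 20 of them higher (6.85%). The DMSO groups held 6 arrays at 48 h and 5 at 24 h, against 3 at each time for 10 µM. The numbers of calls are therefore not directly comparable. Over the 292 miRNAs the changes at 10 µM and in DMSO had a Pearson r of 0.54 and a Spearman rho of 0.48, as a description of miRNAs measured on arrays that share slides and scaling but no samples. The 4 called at 10 µM had the same sign in DMSO, and 3 of them were called there too. miR-23a-3p had 1.05 at 10 µM and 0.97 ± 0.17 in DMSO (adjusted p = 0.00176 in DMSO), miR-106b-5p 0.62 and 0.44 ± 0.10, and miR-18a-5p 0.85 and 0.73 ± 0.15. miR-193a-3p had -1.03 at 10 µM and -0.48 ± 0.17 in DMSO, where its adjusted p was 0.113. Its DMSO levels ran from -1.85 over a median of -1.0 to -0.79 at 48 h and from -0.95 over a median of -0.62 to -0.56 at 24 h.

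**Figure D3:**
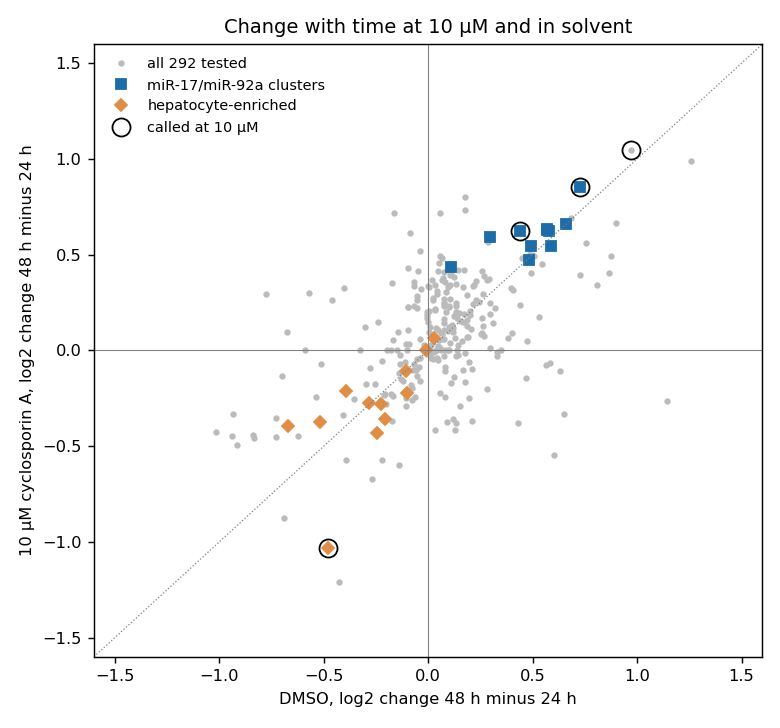
Change with time (log2, 48 h minus 24 h) under 10 µM cyclosporin A (vertical) against that in DMSO (horizontal) for the 292 tested miRNAs; squares are the miR-17/92a and paralogous clusters, diamonds hepatocyte-enriched miRNAs, circles the 4 called at 10 µM, and the dotted line marks equal values. The 11 squares lie in the upper right, with medians of 0.62 at 10 µM and 0.57 in DMSO, and miR-193a-3p lies below the line.

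The test of the difference between these time courses called no miRNA. In limma 0 of 292 (0%) passed, and 5 (1.71%) had an unadjusted p under 0.05. Those 5 were miR-702-3p (0.33 ± 0.14, the 10 µM change minus the DMSO change), miR-877-5p (0.42 ± 0.18), miR-134-5p (0.53 ± 0.23), miR-221-3p (-0.58 ± 0.27) and miR-770-3p (0.24 ± 0.11), all with an adjusted p of 1.00. For miR-193a-3p the difference was -0.55 ± 0.29, with a 95% interval from -1.17 to 0.07. For miR-23a-3p it was 0.08 ± 0.28 and for miR-18a-5p 0.12 ± 0.25. The growth clusters had a median of 0.62 at 10 µM and 0.57 in DMSO, where 8 of the 11 were called, and the hepatocyte list -0.28 and -0.24. The p-values do not show that the 2 time courses were alike, and the intervals give what the arrays allow.

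At 50 µM, 27 miRNAs were called between 48 h and 24 h (9.25%), 22 of them higher (7.53%). The difference between the doses' time courses was called for 17 of 292 (5.82%), 3 with the higher value at 10 µM (1.03%) and 14 with the lower (4.79%). The 10 µM arrays enter both this difference and the change described above, and the 24 h group of 50 µM held 2 arrays. Of the growth clusters, miR-18a-5p had a change of 0.85 at 10 µM and -0.57 ± 0.22 at 50 µM, a difference of 1.43 ± 0.30 (adjusted p = 0.0101). Its 50 µM levels were -4.03, -3.85 and -4.38 at 48 h against -3.86 and -3.60 at 24 h.

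miR-19b-3p had 0.59 at 10 µM and -0.56 ± 0.23 at 50 µM, a difference of 1.15 ± 0.31 (adjusted p = 0.0437). With the arrays named by column, all 11 members had a higher change at 10 µM than at 50 µM, with differences from 0.60 to 1.43, and 2 were called. The list medians were 0.62 at 10 µM and -0.31 at 50 µM. By the files' names they were 0.02 at 10 µM and 0.40 at 50 µM. miR-23a-3p had 1.05 at 10 µM and 0.05 ± 0.25 at 50 µM (difference 1.00 ± 0.34, adjusted p = 0.096). For miR-193a-3p, which had -0.90 ± 0.26 at 50 µM (adjusted p = 0.0397), the difference between doses was -0.13 ± 0.35 (adjusted p = 0.914).

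**Figure D4:**
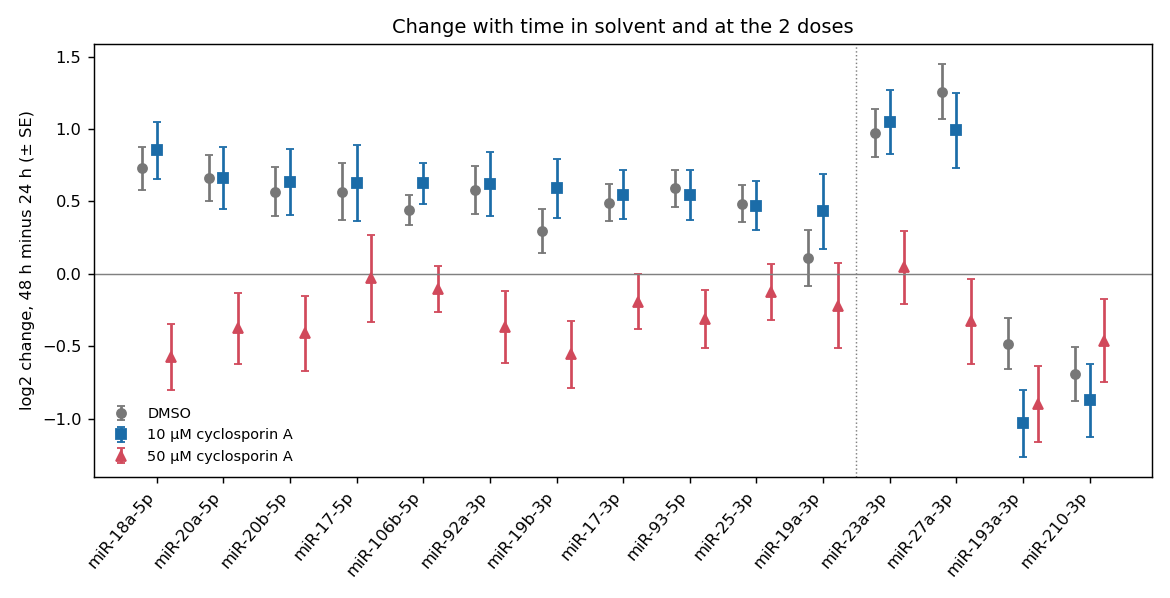
Change with time (log2, 48 h minus 24 h, ± SE) in DMSO, at 10 µM and at 50 µM cyclosporin A for the 11 growth-cluster miRNAs and, right of the dotted line, miR-23a-3p, miR-27a-3p, miR-193a-3p and miR-210-3p. With the arrays named by column, the growth-cluster miRNAs lie between 0.43 and 0.85 at 10 µM, and all lie below 0 at 50 µM. miR-193a-3p is negative in all 3.

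The 5 miRNAs with the lowest p in this comparison were dim entries near the floor at 10 µM. miR-6351 and miR-6418-5p were at the floor, -4.44, on all 6 arrays of 10 µM. At 50 µM miR-6351 had -3.20, -2.86 and -2.62 at 48 h against -4.24 and -4.44 at 24 h, so the 48 h arrays of the higher dose lay above all others. The difference was -1.47 ± 0.16 for miR-6351 and -0.83 ± 0.16 for miR-6418-5p (adjusted p = 0.00474).

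miR-1931 and miR-450a-2-3p were above background on 0 of 3 arrays at 48 h and 1 of 3 at 24 h at 10 µM, with differences of -0.95 ± 0.15 and -0.98 ± 0.18. miR-770-3p, from the imprinted Dlk1-Dio3 cluster, had -4.12, -4.16 and -4.12 at 48 h and -4.44, -4.29 and -4.44 at 24 h under 10 µM, a change of 0.26 ± 0.09, and 0.96 ± 0.10 at 50 µM. Its difference was -0.70 ± 0.13 (adjusted p = 0.00474). Arrays held at the floor vary less than others, so these SEs overstate the precision.

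All 48 h arrays of 50 µM lay on slide 1, which held 1 array of 10 µM at 48 h, so slide and dose could be separated only in part. With slide as a further block 11 differences were called. With the arrays named by their files 0 were called in limma and 0 had an unadjusted p under 0.05, and the sign of the difference turned for all 5 of these dim miRNAs, for example to 0.62 for miR-6351. For miR-18a-5p the changes by the files' names were -0.05 at 10 µM and 0.40 at 50 µM. For miR-19b-3p they were -0.17 and 0.26, so both of these differences turned as well.

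**Figure D5:**
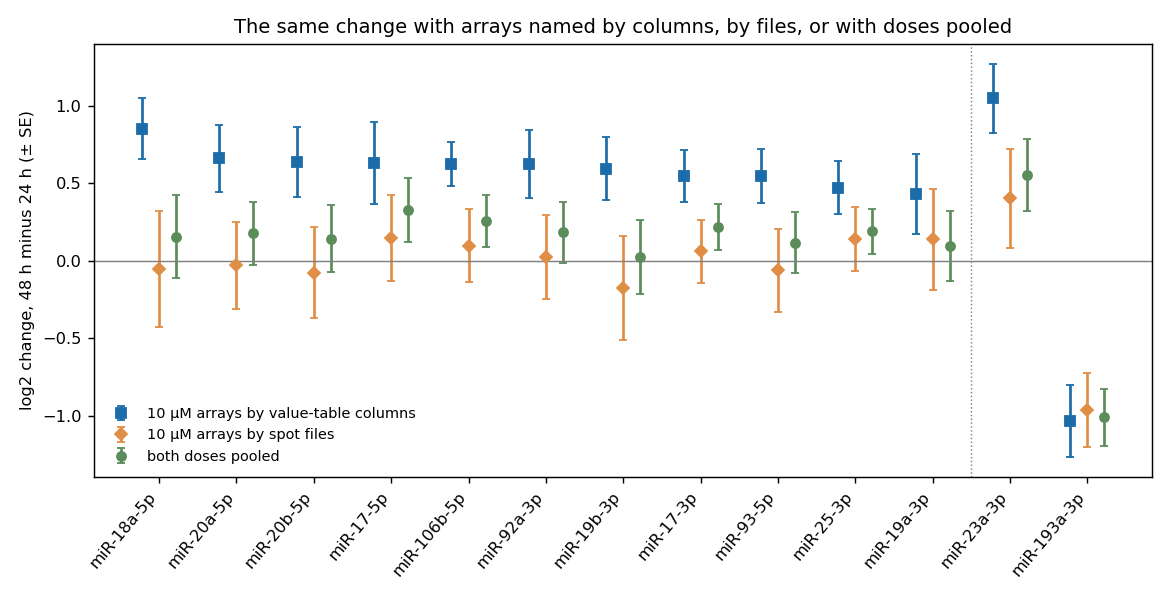
Change with time (log2, 48 h minus 24 h, ± SE) for the 11 growth-cluster miRNAs, miR-23a-3p and miR-193a-3p with the 10 µM arrays named by value-table column, named by spot file, or with both doses pooled. By column the growth-cluster values lie at 0.43 or above, by file their median is 0.02, and pooled it is 0.18, while miR-193a-3p stays between -1.03 and -0.96.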

How the data were processed

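The values came from the deposited spot files of 22 single-colour arrays. The processed signal is a background-corrected intensity that Feature Extraction 10.7.3.1 made for the authors, per the file headers, and the same files hold the flags for outlier and background spots. The deposited value table holds log2 intensities, made with R (version 2.15.2 according to the submitters' processing notes) and never below -1; its steps are not given in the sources used here, and it served for naming and as an alternative. RNA with an integrity number over 8 was labelled with an Agilent kit, per the labels' protocols, although another label field names biotin. The design text speaks of more arrays than the 22 used; the others were not analysed here.

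Intensities were averaged over the non-control, non-outlier spots of a probe (49880 spots, 3105 probes, 1247 miRNAs), scaled to the 75th percentile of each array (181 to 604), taken over the 284 probes well above background everywhere, floored at 0.0459 and put on the log2 scale. Each miRNA took its brightest probe. A minimum of 3 arrays well above background left 293 miRNAs, of which 1 lay at the floor throughout and was dropped. 0 spots were saturated. The number of arrays limits the precision.

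The model was fitted with limma 3.58.1 (R 4.3.3) as a single linear model of 6 groups and 3 experiment numbers (14 residual degrees of freedom), with Benjamini-Hochberg adjustment over 292 miRNAs; the method was tested on simulated data. The pairing comes from the experiment numbers in the labels. Same-numbered deviations from the group means correlated at 0.56, 0.06 and 0.26 in experiments 1 to 3, so the arrays of experiment 2 hardly deviated together. CsA10uM_24h replicate 2 stood apart from its group for some miRNAs. For miR-5105 it had 3.83 against 1.79 and 1.40, with 3.84 and 3.79 at 50 µM and 24 h. For miR-6366 it had 7.96 against 6.35 and 6.06, with 5.19 and 6.21 at 50 µM. The cause was not tested.

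The members and lists were chosen with earlier results of these data known. Named were the 12 miRNAs with the lowest p (fewer than 12 were called), the 5 lowest in each difference of time courses, the 10 with the highest signal, anchors and up to 4 lowest-p members of each list, and those above background in every array of a single group. Alternatives covered scaling, background correction, the value table, filters, probes, blocks, names, pooling and left-out arrays. Sequences are RefSeq's.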

Additional observations from a re-analysis of the deposited data

Results flagged for a closer look

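The change with time differed between 10 µM and 50 µM for 7 named miRNAs by the test of the difference. The 10 µM change minus the 50 µM change was 1.43 for miR-18a-5p, 1.15 for miR-19b-3p, -0.70 for miR-770-3p, -0.98 for miR-450a-2-3p, -0.95 for miR-1931, -1.47 for miR-6351 and -0.83 for miR-6418-5p. None of these was called when the arrays were named by their files.

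Among the 12 miRNAs with the lowest p, 24 DMSO groups were looked at for a sample far from the others, and 2 were flagged. Chance gives about 1 in 20 where values are not held at the floor. miR-193a-3p had -0.95 in DMSO_24h replicate 1, with the nearest other array at -0.65. miR-99b-5p had -4.35 in the same array, with the other 4 at the floor of -4.44. Where all other values are equal, any array off the floor is flagged, so this flag does not show a distant sample.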

How the results depend on the processing

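The 4 calls between 48 h and 24 h at 10 µM became 0 with scaling over all probes, quantile normalisation, the value table, no replicate block, the replicate block within dose series, names by file, or the 6 arrays alone; 2 with normexp; 1 with slide as a block or doses pooled; 9 with the mean over probes; and 0 to 2 without single arrays or experiments. Unadjusted counts then ran from 17 to 76. miR-23a-3p kept its call in 3 of 22 alternatives, miR-106b-5p in 2, miR-193a-3p in 5 and miR-18a-5p in 3. In DMSO the 24 calls became 2, 14, 8 and 2 with all-probe scaling, quantile, normexp and the value table, 1 with no replicate block, 15 with slide, 7 by file, and 0 to 31 without single arrays or experiments. The 17 differences between doses became 2, 5, 1 and 0 in the same order of scalings, 0 with a filter of 11 arrays, 9 with no replicate block, 7 with the block within series, 11 with slide, 0 by file, and 2 to 20 without single arrays or experiments. The difference from DMSO stayed at 0 calls in all alternatives run. Of 1335 alternative values of single miRNAs, 77 turned sign, 65 of them where the reported value had an unadjusted p of 0.05 or more. The other 12 follow. Signs turned for miR-122-5p (0.0601 with quantile, 0.0599 with normexp), miR-18a-5p (-0.0540 by file) and miR-770-3p (-0.97 in the value table). For the difference from DMSO they turned for miR-702-3p (-0.0181) and miR-770-3p (-0.027) with all-probe scaling and for miR-770-3p (-1.13) in the value table. For the difference from 50 µM they turned by file for miR-6351 (0.62), miR-1931 (0.48), miR-450a-2-3p (0.33), miR-6418-5p (0.25) and miR-770-3p (0.0256). The differences of miR-18a-5p and miR-19b-3p from 50 µM were not among the 1335 values. By file their changes were -0.05 and -0.17 at 10 µM and 0.40 and 0.26 at 50 µM, so these differences turned too. The causes were not tested. All-probe scaling moved the median of all changes at 10 µM to -0.07, against 0.09; the growth-cluster median was then 0.35. Of the 1335 values, 1229 kept their side of the threshold, 98 lost their call and 8 gained one. Signal near background limits the dim miRNAs, whose sizes depend on the floor.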
